A study of Mus musculus with 4 samples.

Results

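Mmp12 macrophages are a set of tumour macrophages chosen by 2 transcripts, Mmp12 (macrophage elastase, a secreted protease that cuts elastin and other matrix proteins) and Atp6v0d2 (a subunit of the proton pump that acidifies lysosomes, known from osteoclasts and some macrophages). They were taken from 1 library, labelled Tc1, of a 10x Genomics single-cell RNA experiment on mouse tumours. Barcodes, each taken as 1 cell, passed with 500 or more genes and no more than 10% mitochondrial transcripts. A barcode entered the macrophage gate with at least 5 UMIs (unique molecular identifiers, counted molecules) of C1qa, C1qb and C1qc together, at most 1 UMI of Cd3d, Cd3e and Cd3g, and fewer than 3 UMIs of Cxcl9 and Cxcl10. It was a member with at least 3 UMIs of Mmp12 and Atp6v0d2 together. The rule found 365 members among 2051 barcodes of the gate, or 17.8% (95% exact binomial interval 16.2 to 19.5%), and among 11933 kept barcodes of the library. The members were compared with the 1444 barcodes of the same gate that had 0 UMIs of both genes (70.4%), called comparison macrophages below. The remaining 242 barcodes (11.8%) had 1 or 2 UMIs of the pair.

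The mice were wild-type B6 (Thy1.2+) animals carrying a chimeric tumour. With an adjuvant, they were given Tc1 or Tc9 cells, which are CD8 T cells in 2 states of polarisation, from Thy1.1+ Pmel-1 donors, whose receptor recognises the melanoma protein Pmel. Tumours of 3 mice were pooled for each group on day 30 after inoculation, and cells labelled as tumour-infiltrating CD4+ T cells were enriched on Percoll and sorted. RNA and T cell receptor libraries were made once for each group, so there was 1 sample a group. No spread between samples could be measured, no p-value is given, and every interval covers counting error only.

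Tissue macrophages clear dead cells, digest what they take up in acid lysosomes, recycle the iron of haem and remodel matrix. In fatty and dying tissue some of them take on the state known as lipid-associated, marked by the lipid receptor Trem2, the lysosomal membrane protein Gpnmb, the fatty acid carriers Fabp4 and Fabp5 and the secreted phosphoprotein Spp1. Mmp12 is a classic product of activated macrophages, and Igf1 is a growth factor that repair macrophages secrete.

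The label of the libraries is a CD4+ T cell sort, and the members went against it. The 15 core macrophage genes fixed as a list summed to 17099 CPM (a gene's UMIs scaled to the summed UMIs of the population) in members, 18339 in comparison macrophages and 2947 in the 3481 barcodes with 3 or more Cd3 UMIs and 0 C1q UMIs, taken as T cells. Gene by gene, 1 of the 15 was at least 1.5-fold higher in members than in comparison macrophages and 8 at least 1.5-fold lower. T cell measures were near the level of the comparison: a productive T cell receptor contig was found on 2 of 365 member barcodes (0.548%, interval 0.0664 to 1.97%) and 8 of 1444 comparison barcodes (0.554%), against 72.1% of T cells, and the T cell marker list summed to 63.2 CPM in members, 66.0 CPM in comparison macrophages and 4817 CPM in T cells. That list holds the Cd3 genes, which the rule limits in both macrophage sets and requires in T cells. Its sums are thus partly set by the choice, while the contigs were no part of the rule. The members are described as macrophages in a sort that was meant to hold T cells, and their number says nothing of the tumour's own makeup.

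Median depth was close, and the make-up of the RNA differed. Members had a median of 5236 UMIs (quartiles 3054 and 9254, range 1002 to 43953) and comparison macrophages 5246.5 (quartiles 2572 and 9759, range 762 to 114954). After every cell was thinned to 3000 UMIs, which left out 89 members and 450 comparison cells, members held a median of 1042.5 genes (quartiles 916.5 and 1220) and comparison macrophages 1357 (quartiles 1259 and 1433). Ferritin transcripts (Fth1 and Ftl1) took a median of 6.49% of a member's UMIs (quartiles 3.68 and 9.50%) and 1.45% of a comparison cell's (quartiles 0.844 and 2.92%). Mitochondrial transcripts took 0.523% against 1.17%. The typical gene was lower in CPM in members: the median log2 ratio over 7849 genes with at least 10 CPM in either population was -0.49. Of these genes 372 (4.74%) were at least 1.5-fold higher in members and 3419 (43.6%) at least 1.5-fold lower, a split that is set by the scaling. With the median gene set to 0 the counts were 1307 and 1419, and with TMM factors (trimmed mean of M values) 1125 and 1582, so the share of calls that were higher moved from 9.81% to 47.9% and 41.6%. Every log2 ratio below is of CPM, members over comparison macrophages, and is read against -0.49; every list is read against the 4.74% and 43.6% over all genes.

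The genes that chose the members are a description only. Mmp12 was seen in 346 of 365 members, with a median of 8 UMIs (quartiles 4 and 18, highest 249) and 2324 CPM. The 18 members with the most of it held 29.7% of its UMIs. Atp6v0d2 was seen in 211 members, with a median of 1 UMI, a maximum of 33 and 312 CPM. Both genes were found in 192 members (52.6%), Mmp12 alone in 154 (42.2%) and Atp6v0d2 alone in 19 (5.21%). Of T cells, which lack both, 2.41% had a Mmp12 UMI and 0.755% an Atp6v0d2 UMI at a depth of 3000 UMIs, against 87.3% and 44.6% of members. The gene models lie at chr9:7344397-7360461 for Mmp12 and chr4:19876838-19922566 for Atp6v0d2 (GRCm38). Barcodes just inside and just outside the threshold were close in several genes and apart in others. The 49 barcodes with 3 UMIs of the pair had 566 CPM of Gpnmb, 3260 CPM of Fabp5 and 385 CPM of Igf1, and the 94 barcodes with 2 UMIs had 509, 3621 and 323 CPM. Ly6c2 was at 147 CPM just inside and 267 CPM just outside, and H2-Ab1 at 1674 and 2171 CPM. The threshold cuts a range rather than a gap.

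The 3 other markers proposed for these cells were all more abundant in members. They were proposed with earlier results of these data known, so their direction is a description only. Igf1 (chr10:87858265-87937047) was at 451 CPM in members, 244 CPM in the barcodes with 1 or 2 UMIs of the pair, 83.0 CPM in comparison macrophages and 2.72 CPM in T cells; its log2 ratio was 2.44 (interval 2.31 to 2.57). Trem2 (chr17:48346401-48352276) was at 599, 436, 272 and 14.0 CPM in the same order; the log2 ratio was 1.14 (1.05 to 1.23). Ccl8 (chr11:82115185-82116799), a chemokine that draws monocytes and T cells, was at 1516, 1344, 706 and 11.4 CPM; the log2 ratio was 1.10 (1.05 to 1.16). All 3 were graded, with the barcodes of 1 or 2 UMIs in the middle. For Ccl8 the direction turned when both populations were limited to barcodes without a UMI of the monocyte genes Ly6c2, Ccr2 and Plac8 (log2 ratio -0.47, 233 members and 423 comparison cells); Igf1 and Trem2 kept theirs.

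The lipid-associated genes led the differences. Of 20 tested, 12 were at least 1.5-fold higher in members and 3 lower, with a median log2 ratio of 0.94, and 16 stood above the median of all genes. Gpnmb (chr6:49036518-49058182) was at 1294 CPM in members, 332 CPM with 1 or 2 UMIs of the pair, 190 CPM in comparison macrophages and 142 CPM in the Cxcl9/Cxcl10 macrophages described below; the log2 ratio was 2.76 (2.68 to 2.85). At 3000 UMIs a Gpnmb transcript was found in 68.8% of members (without thinning 75.3%), 15.1% of comparison macrophages (20.9%) and 5.21% of T cells. Fabp5 (chr3:10012585-10016610) was at 5289, 2791, 890 and 481 CPM in those 4 populations, with a log2 ratio of 2.57 (2.53 to 2.61). Fabp4 lies 187.7 kb away on chromosome 3, with 2 protein-coding genes between. It was at 347 CPM in members and 104 CPM in comparison macrophages (1.74), where 18 barcodes held 84.1% of its UMIs. The Fabp4 ratio ran from 0.60 to 3.38 over the alternatives given at the end. Spp1 (chr5:104435111-104441053) was at 2179 and 781 CPM (1.48), and Lgals3, the lectin galectin-3, at 9488 and 2874 CPM (1.72). Cd36, a fatty acid and oxidised lipid receptor, had a log2 ratio of 1.58, Lpl, lipoprotein lipase, 1.32, Cd9 1.24 and the lipid droplet protein Plin2 0.75. The list was not uniform. Apoe, the lipid carrier, was at 4625 and 5386 CPM (-0.22), the cholesterol exporters Abca1 and Abcg1 were at -0.38 and -0.28, and Pltp (-1.12), Apoc2 (-1.08) and Pparg (-0.68) were lower. The genes of cholesterol synthesis and uptake stood on the other side: 0 of 13 were higher and 11 lower, with a median of -0.84.

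**Figure D1:**
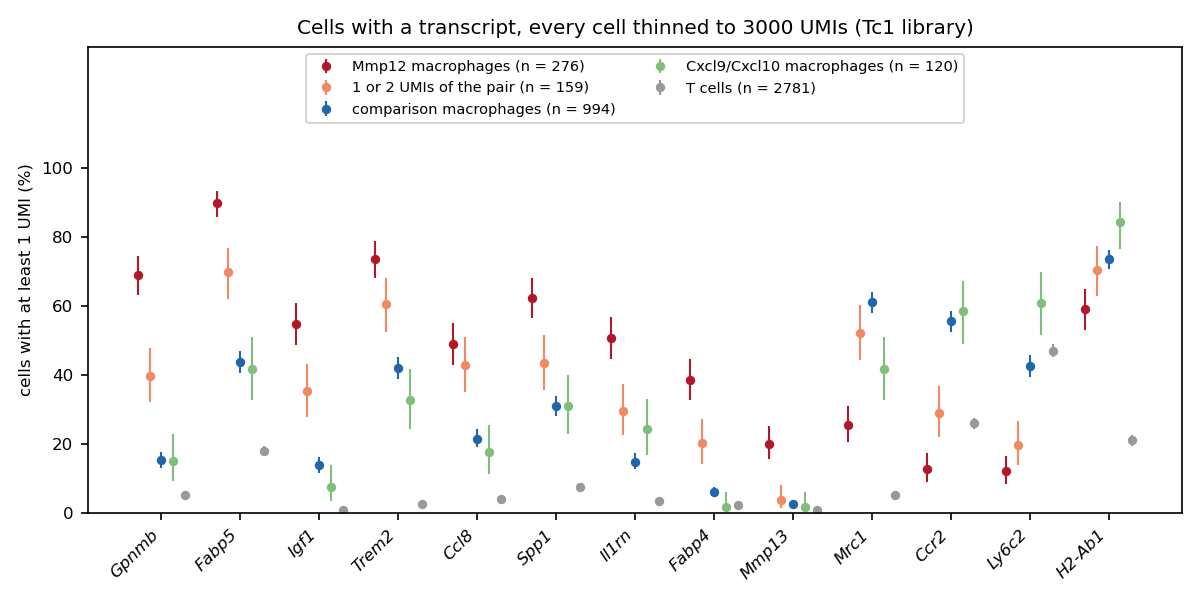
Percent of cells with at least 1 UMI of each gene after every cell was thinned to 3000 UMIs, in 5 populations of the Tc1 library (points, with 95% exact binomial intervals; n is the number of cells thinned). Gpnmb, Fabp5 and Igf1 transcripts were found in 68.8%, 89.9% and 54.7% of Mmp12 macrophages and in 15.1%, 43.6% and 13.7% of comparison macrophages, while Ccr2 was found in 12.7% and 55.4%.

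Lysosomal genes stood above the typical gene, with members on both sides. Of 36 lysosomal enzymes and membrane proteins tested, 10 were at least 1.5-fold higher and 6 lower; the median was 0.17, and 30 of 36 stood above the median of all genes. The cysteine protease Ctsl was at 1759.7 CPM in members, 863 CPM with 1 or 2 UMIs of the pair and 763 CPM in comparison macrophages (1.20). The aspartic protease Ctsd was at 2475 and 1274 CPM (0.96), Ctsb at 4454 and 2750.1 CPM (0.70), and the protease inhibitor Cstb at 2586 and 1169 CPM (1.15). The membrane protein Cd63 (1.38), the nuclease Pld3 (1.45) and the galactosidase Gla (0.90) were also higher. Ctsc, which activates granule proteases, was at 519 and 1065 CPM (-1.04), and Scarb2, a carrier of lysosomal enzymes, at 39.1 and 87.3 CPM (-1.16). Of 17 subunits of the proton pump other than Atp6v0d2, 4 were higher, 2 lower and 15 above the median of all genes, with a median of 0.38. Atp6v1c1 was highest at 242 and 108 CPM (1.16), followed by Atp6v0e (0.67), Atp6v0c (0.62) and Atp6v1a (0.61). The alternative a subunits were the 2 lower ones, Atp6v0a1 at -0.74 and Atp6v0a2 at -1.21, and Atp6v0d1, the widely expressed form of the d subunit, was at 198 and 185 CPM (0.10).

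Many lysosomal genes share the palindrome CACGTG near their start, the core of the element bound by the factors Tfeb, Tfe3 and Mitf. It was searched in the RefSeq windows of GRCm38.p6 from 250 bases before to 50 bases after each gene's start, where it reads alike on both strands. It was found in 7.15% of all 32851 windows, in 10 of 33 windows of the lysosomal list (30.3%, with a window for 28 of 36 genes) and in 4 of 16 windows of the pump list (25%). It was in 1 of 23 windows of the 20 highest genes (4.35%), 0 of 12 of the 12 lowest and 0 of 17 of the iron handling genes. The letters TGACNNNGC, the core of the antioxidant response element, were searched too. They were in 12.4% of all windows, 0 of 23 for the 20 highest and 0 of 12 for the 12 lowest. For iron, lysosomal and pump genes they were in 2 of 17, 8 of 33 and 2 of 16 windows. Stretches upstream of the start are shown because their genes span the range of ratios among those with the palindrome; capitals mark the palindrome.
Ctsd, chr7:142388018-142388077, minus strand: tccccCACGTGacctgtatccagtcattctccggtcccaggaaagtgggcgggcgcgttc
Ctsl, chr13:64370711-64370770, minus strand: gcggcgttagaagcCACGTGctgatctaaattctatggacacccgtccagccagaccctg
Lamp1, chr8:13159075-13159134, plus strand: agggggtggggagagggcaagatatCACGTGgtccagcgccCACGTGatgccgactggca
Lgmn, chr12:102439107-102439166, minus strand: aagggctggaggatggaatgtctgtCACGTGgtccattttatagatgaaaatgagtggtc
Atp6v0b, chr4:117887331-117887390, minus strand: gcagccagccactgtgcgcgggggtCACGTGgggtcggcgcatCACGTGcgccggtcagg
Ctsd and Ctsl had log2 ratios of 0.96 and 1.20, Lamp1 0.50, Atp6v0b -0.03 and Lgmn -0.21. Over both lists, the 14 genes with the palindrome in a window had a median log2 ratio of 0.45 (6 higher, 0 lower, range -0.21 to 1.20), the 26 genes with a window but no palindrome -0.15 (5 higher, 7 lower), and the 13 genes with no window 0.11 (3 higher, 1 lower). The transcripts of the factors themselves were Tfeb at 32.0 and 34.6 CPM (-0.11), Tfe3 at 22.5 and 39.3 CPM (-0.80) and Mitf at 99.9 and 174 CPM (-0.80). A match of letters is no evidence of binding.

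Iron and haem genes were higher. Of 13 tested, 6 were at least 1.5-fold higher and 1 lower, with a median of 0.50. The ferritin heavy chain Fth1 (chr19:9980600-9985111) made up 60335 CPM in members, 36250.1 CPM with 1 or 2 UMIs of the pair, 16607 CPM in comparison macrophages, 11732 CPM in Cxcl9/Cxcl10 macrophages and 3861 CPM in T cells; the log2 ratio was 1.86 (1.85 to 1.87). A member cell's Fth1 level had quartiles of 31967 and 91000 CPM, and a comparison cell's 6102 and 25508 CPM, so the ranges between quartiles did not overlap. The light chain Ftl1 was at 0.81. Hmox1, which opens the haem ring, was at 2322 and 762 CPM (1.61), the lysosomal haem transporter Slc48a1 at 162 and 69.4 CPM (1.22), the iron exporter Slc40a1 at 39.5 and 18.8 CPM (1.07, but -0.77 without monocyte gene UMIs) and Ncoa4, which carries ferritin to lysosomes, at 0.93. Tfrc, the transferrin receptor, was at -0.37. Ferritin has near-identical pseudogenes, which the counting could share reads with. Red cell and platelet transcripts summed to 1098 CPM in members and 1651 CPM in comparison macrophages; the direction of that list turned with the setting, from a median log2 ratio of -0.44 to 0.51 with cells weighted equally, 0.43 after thinning and 0.90 at the members' middle depth, and its part in the iron result was not tested.

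Glycolytic and hypoxia genes moved the same way. Of 16 glycolysis genes 9 were higher and 1 lower, with a median of 0.70, and 15 stood above the median of all genes. Aldoa was at 2878 and 1203 CPM (1.26), Gapdh at 10248 and 4973 CPM (1.04), the glucose transporter Slc2a1 at 321 and 157 CPM (1.04) and Ldha at 2113 and 1119.9 CPM (0.92); the lactate exporter Slc16a3 was the 1 that was lower (-0.78). Of 15 hypoxia genes 9 were higher and 0 lower, with a median of 0.82. The peptide hormone Adm was at 39.9 and 9.19 CPM (2.12), the mitophagy receptors Bnip3 and Bnip3l at 1.35 and 1.24, and Ndrg1 at 1.34, while the angiogenic factor Vegfa was at 172 and 158 CPM (0.13) and Hif1a at 131 and 244 CPM (-0.90). Among nuclear genes of oxidative phosphorylation 0 of 29 were higher and 2 lower (median -0.02); 27 of 29 stood above the median of all genes. All 13 mitochondrial transcripts were lower, with a median of -0.82.

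**Figure D2:**
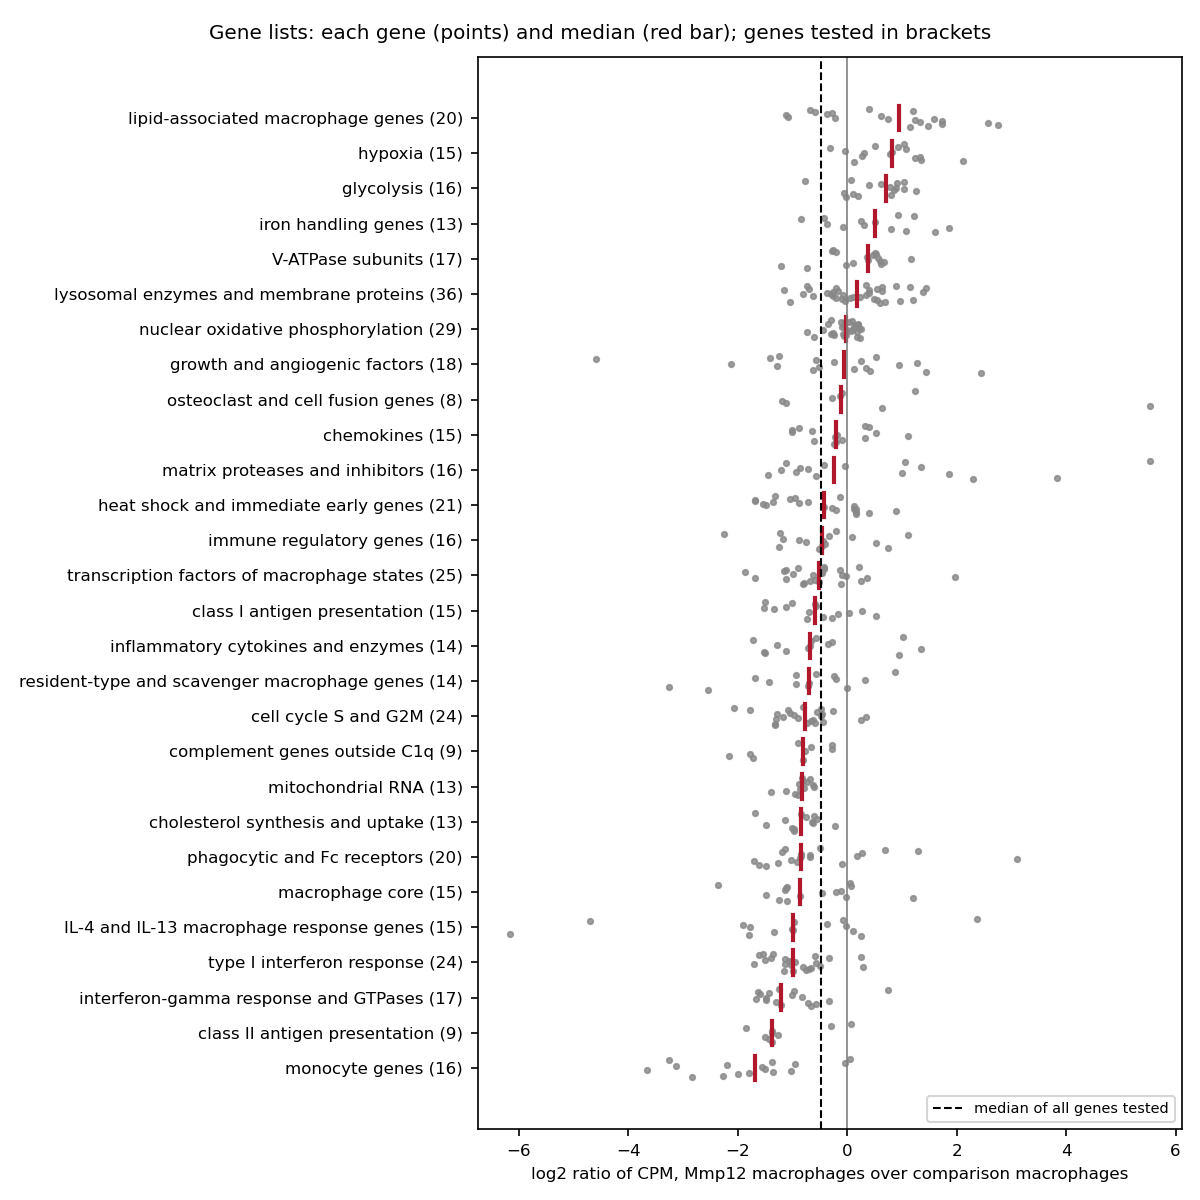
log2 ratio of CPM, Mmp12 macrophages over comparison macrophages, for each tested gene (grey points) of 28 lists, with the median of each list (red bar) and of all 7849 genes (dashed line at -0.49). Lipid-associated genes (median 0.94), hypoxia (0.82) and glycolysis (0.70) lie farthest to the right, and monocyte genes (-1.68) and class II antigen presentation (-1.37) farthest to the left.

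Among proteases and inhibitors of the matrix, the list split: 7 of 16 were higher and 6 lower, with a median of -0.24. Mmp13, a collagenase, was at 151 CPM in members, 27.2 CPM with 1 or 2 UMIs of the pair and 10.6 CPM in comparison macrophages (3.84, interval 3.52 to 4.16), and was seen in 91 members. Mmp8, another collagenase, was at 32.4 and 6.59 CPM (2.30) and Mmp27 at 13.4 and 3.70 CPM (1.86, but -0.23 without monocyte gene UMIs). These lie in 1 cluster with Mmp12 on chromosome 9: Mmp13 at chr9:7272514-7283333, Mmp8 at chr9:7558429-7568486 and Mmp27 at chr9:7571396-7581885, a span of 309 kb. Within members, the top 18 barcodes of each gene held 56.9% of the UMIs of Mmp13, 65.9% of Mmp8 and 76.5% of Mmp27. The cluster was looked at after its values were seen. Of its 9 Mmp genes, 5 had a UMI in members: beside these 3 and Mmp12, Mmp10 had 6 UMIs in members and 1 in comparison macrophages. Mmp1b, Mmp3, Mmp7 and Mmp20 had 0 UMIs in members. Ctsk, the collagen-cutting protease of osteoclasts (chr3:95499210-95509387), had the highest ratio of all named genes, 64.8 against 1.40 CPM (5.53, interval 4.75 to 6.44), but was seen in 36 members, and 18 of them held 87% of its UMIs. Plau, the urokinase, was at 1.35 and its inhibitor partner Timp2 at 1.05, while Mmp19 (-1.45), Adam10 (-1.20) and Timp1 (-1.13) were lower. Of 8 osteoclast and cell fusion genes 3 were higher (Ctsk, Cd9 and the acid phosphatase Acp5) and 2 lower: Tnfrsf11a, the RANK receptor, was at 32.8 and 75.1 CPM (-1.20) and Nfatc1 at 15.4 and 33.3 CPM (-1.11).

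**Figure D3:**
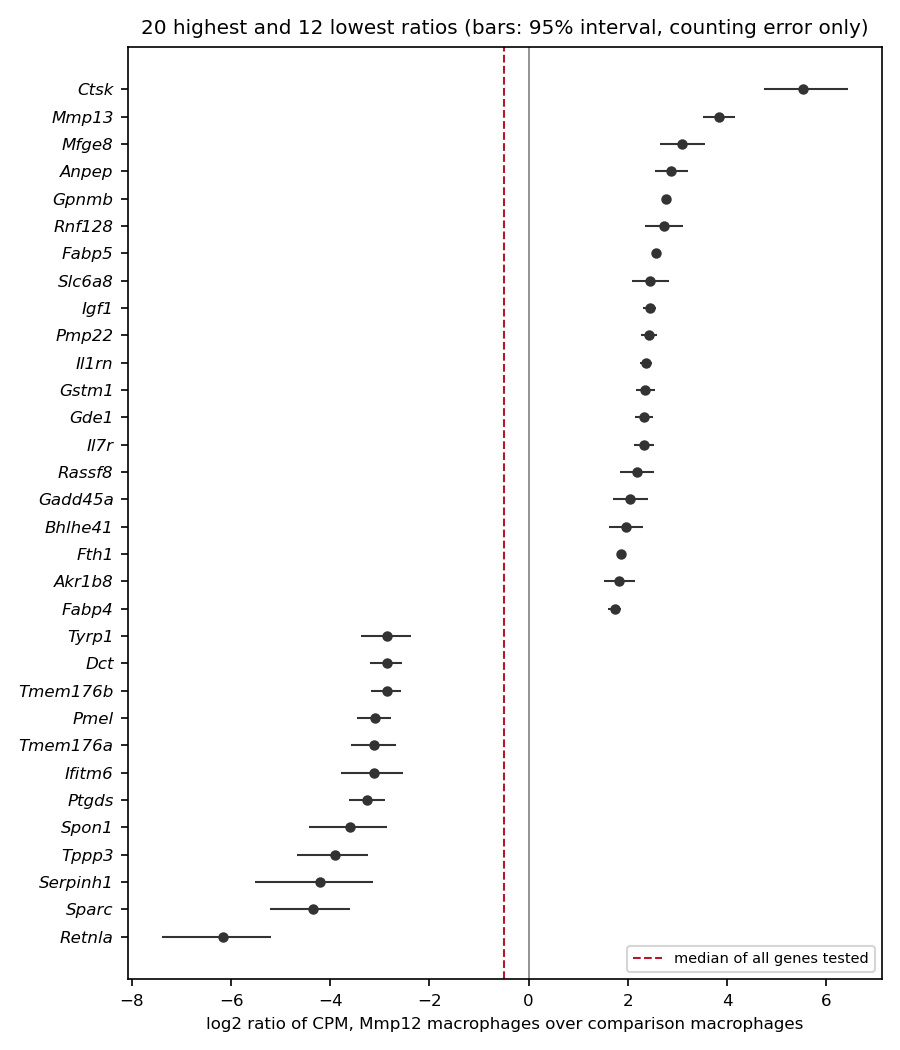
log2 ratio of CPM, Mmp12 macrophages over comparison macrophages, for the 20 highest and 12 lowest ratios among genes with at least 50 CPM in either population (points, with 95% intervals that cover counting error only; Mmp12, Atp6v0d2 and the other genes of the rule left out). Ctsk is highest at 5.53 and Retnla lowest at -6.17; the dashed line is the median of all genes, -0.49.

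Several of the other highest genes are secreted or membrane proteins. The receptor antagonist Il1rn, which blocks IL-1, was at 481 and 93.5 CPM (2.36) and was seen in 236 members. Il7r, the IL-7 receptor chain of lymphocytes, was at 182 and 36.4 CPM (2.32) and was seen in 154 members. T cells had 146 CPM of it, while their marker list was at 63.2 CPM in members and 66.0 CPM in comparison macrophages. Those 2 sums are partly set by the limit of the gate on Cd3 genes, and T cell RNA as a source of Il7r was not tested. Anpep, an aminopeptidase, was at 83.7 and 11.4 CPM (2.88), the myelin protein Pmp22 at 280 and 51.9 CPM (2.43), the glutathione transferase Gstm1 at 210 and 41.2 CPM (2.35) and the creatine transporter Slc6a8 at 57.3 and 10.5 CPM (2.45). Mfge8, a bridge between dying cells and phagocytes, was at 52.9 and 6.20 CPM (3.09), with 93% of its UMIs in 18 of the members. Bhlhe41, a repressor of transcription, was the 1 of 25 transcription factors that was higher (57.7 and 14.8 CPM, 1.96), and Rassf8, the next protein-coding gene on chromosome 6, was at 61.2 and 13.5 CPM (2.18). The stress gene Gadd45a had 2.05, Akr1b8 1.83, Rnf128 2.73 and Gde1 2.32.

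Monocyte genes were the lowest of the pathway lists, leaving aside markers of other cell types: 0 of 16 were higher and 14 lower, with a median of -1.68. Ly6c2, the surface marker of inflammatory monocytes, was at 108 CPM in members, 457 CPM with 1 or 2 UMIs of the pair, 773 CPM in comparison macrophages and 1589 CPM in Cxcl9/Cxcl10 macrophages (-2.84). T cells had 822 CPM of it. Ccr2, the receptor for entry of monocytes into tissue, was at 84.1, 196, 406 and 425 CPM (-2.27); at 3000 UMIs it was found in 12.7% of members and 55.4% of comparison macrophages. Plac8 was at 252 and 878 CPM (-1.80). Of the resident-type and scavenger genes 1 of 14 was higher and 8 lower, with a median of -0.70: Lyve1 was at 5.92 and 34.7 CPM (-2.55) and Cd163 at 1.18 and 11.4 CPM (-3.27), while Folr2 was at 154 CPM in both (-0.00). In comparison macrophages the top 18 barcodes of each gene held 78.1% of the Lyve1 UMIs and 66.7% of the Cd163 UMIs. Relative to the median of all genes, the resident-type list ran from -0.92 to 0.55 over the 16 alternatives given at the end. The core genes were split too, with Csf1r, the growth factor receptor of macrophages, at 156 and 371 CPM (-1.25), Mertk at -1.48, Lyz2 at 6271 and 6368 CPM (-0.02) and Cd68 higher.

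Antigen presentation was lower on the class II side. Of 9 class II genes 0 were higher and 7 lower, with a median of -1.37. Cd74, the invariant chain, was at 3687 CPM in members, 6913 CPM with 1 or 2 UMIs of the pair, 9612 CPM in comparison macrophages and 11995 CPM in Cxcl9/Cxcl10 macrophages (-1.38). H2-Ab1 was at 1202 and 3230 CPM (-1.43) and Ciita, the class II activator, at 12.6 and 45.7 CPM (-1.85). Among class I genes 0 of 15 were higher and 8 lower (median -0.59, near that of all genes, so that their direction hangs on the scaling): the peptide transporters Tap1 and Tap2 were at -1.34 and -1.52, but B2m was at 3379 and 2799 CPM (0.27). The genes of the interferon-gamma response had 1 of 17 higher and 14 lower (median -1.21), and those of type I interferon 0 of 24 higher and 18 lower (median -0.99). The type I list lay 0.51 below the median of all genes, and 0.57 above it in the barcodes without monocyte gene UMIs, where the 2 populations differed in depth. The 1 higher gene of the interferon-gamma list was Cd274, the checkpoint ligand PD-L1, at 146 and 86.5 CPM (0.75).

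Genes of macrophage activation did not move as 1 block. Of 15 IL-4 and IL-13 response genes 1 was higher, Il1rn, and 9 were lower, with a median of -0.98. Arg1, arginase, was at 1549 and 1293 CPM (0.26). Mrc1, the mannose receptor, was at 243 and 616 CPM (-1.34), Il4ra, the receptor chain, at 41.5 and 143 CPM (-1.78), and the lectin-like Chil3 at 26.9 and 92.7 CPM (-1.79). Retnla was the lowest of all at 3.16 and 228 CPM (-6.17), but 97.3% of its UMIs in comparison macrophages lay in 18 of their 1444 barcodes. Of 14 inflammatory genes 3 were higher and 8 lower (median -0.67): Nos2 (24.1 and 9.49 CPM, 1.34), Acod1 (1.03) and Il1a (0.94) were higher, and Il1b (176 and 496 CPM, -1.50), Tnf (34.4 and 98.3 CPM, -1.52) and the regulator Nfkbiz (-1.72) were lower. Nos2 was seen in 29 members, and 18 barcodes held 82.0% of its UMIs in members and 77.9% in comparison macrophages. Its lowest ratio over the alternatives given at the end was 0.0077. The list of heat shock and immediate early genes stood near all genes, with 1 of 21 higher, 10 lower and a median of -0.42; within it Fos was at 540 and 1506 CPM (-1.48) and Egr1 at -1.69, and the heat shock gene Hsph1 was higher (0.89). Among transcription factors Klf2 was at -1.86. Among 15 chemokines Ccl8 alone was higher and 5 were lower; Cxcl2 was at 1522 and 3068 CPM (-1.01), and Ccl2 at 1616 and 1906 CPM (-0.24).

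Receptors for dying cells and coated targets were mostly lower, with 3 of 20 phagocytic and Fc receptor genes higher, 13 lower and a median of -0.85. Axl was at 21.3 and 64.9 CPM (-1.61) and Itgb5 at 35.5 and 115 CPM (-1.70), while Clec4d was at 601 and 245 CPM (1.30). Complement genes outside the rule were lower in 7 of 9 and higher in 0 (median -0.81), with factor B, Cfb, at 28.0 and 125 CPM (-2.16). The growth factors were mixed: beside Igf1, Pdgfa (35.1 and 12.9 CPM, 1.45) and Gdf15 (263 and 109 CPM, 1.27) were higher, and Areg (-2.12), Nrp1 (-1.41) and Tgfbi (-1.28) lower, with 4 of 18 higher and 6 lower. Areg was seen in 2 members and 32 comparison barcodes, and 18 of the latter held 91.1% of its comparison UMIs. It was at 6.71 CPM in members, 29.2 CPM in comparison macrophages and 57.6 CPM in T cells. Among 16 immune regulatory genes 2 were higher, Cd274 and the IL-18 inhibitor Il18bp (1.12), and 6 lower, with Siglec1 at 14.2 and 67.4 CPM (-2.25), Vsir at -1.24 and the costimulator Cd86 at 111 and 250 CPM (-1.17). Cell cycle genes had 0 of 24 higher and 15 lower (median -0.78), but the list stood 0.49 above the median of all genes without barcodes of melanoma UMIs or top depth, 0.20 above it after thinning and 0.23 above it at the members' middle depth.

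Some of the lowest genes belong to other cell types and rest on few comparison barcodes. Pmel, the melanoma antigen, was at 29.2 CPM in members, 251 CPM in comparison macrophages, 284 CPM in Cxcl9/Cxcl10 macrophages and 173 CPM in T cells (-3.10), and 91.5% of its UMIs in comparison macrophages lay in 18 barcodes. The melanoma list summed to 105 CPM in members, 816 CPM in comparison macrophages and 1024 CPM in Cxcl9/Cxcl10 macrophages, the fibroblast list to 4.74, 87.6 and 416 CPM, and the endothelial list to 8.69 and 61.5 CPM in members and comparison macrophages. At least 2 UMIs of Pmel, Dct and Mlana were found in 10.4% of members and 9.28% of comparison macrophages. In cells of the members' middle depth the melanoma list lay 0.53 above the median of all genes, not 2.40 below it. B cell (5.53 and 19.1 CPM), NK cell (26.5 and 20.7 CPM), neutrophil (50.2 and 68.4 CPM), dendritic cell (22.9 and 39.5 CPM) and mast cell lists (0 and 0.0999 CPM) were low in both. Sparc (-4.35), Serpinh1 (-4.20), Ptgds (-3.25), Dct (-2.86) and Tyrp1 (-2.85) belong to the same 12 lowest genes. Most of these ratios were far nearer 0 over other sets of barcodes: at the members' middle depth Pmel was at -0.049, Serpinh1 at -0.094, Tyrp1 at -0.40 and Ptgds at 0.0042, and without barcodes of melanoma UMIs or top depth Sparc was at -0.54 and Dct at -0.063; whether other cells' RNA made their ratios was not tested gene by gene. Tppp3 (-3.90), Spon1 (-3.59), Ifitm6 (-3.12), Tmem176a (-3.11) and Tmem176b (-2.87) were spread over 287 to 619 comparison barcodes. For Tmem176b that was 37.9 CPM in members and 276 CPM in comparison macrophages.

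The amount of the chosen pair was then followed at equal depth. Cells of the gate thinned to 3000 UMIs were split by their remaining Mmp12 and Atp6v0d2 UMIs into 0 (1072 cells), 1 to 2 (154), 3 to 9 (129) and 10 or more (74). Gpnmb had a mean of 0.432, 1.31, 3.44 and 6.50 UMIs per cell in these steps. Fabp5 had 3.15, 11.4, 16.5 and 18.8, and Lgals3 9.50, 20.7, 29.1 and 36.4. Mmp13 had 0.0289, 0.136, 0.271 and 1.04, and Il1rn 0.317, 0.740, 1.12 and 2.23. These genes were higher at each step, Fabp5 mostly between the first and the second and Mmp13 mostly at the last. Ccr2 went the other way with 1.30, 0.487, 0.186 and 0.0541, as did Ly6c2 with 2.35, 0.974, 0.202 and 0.108. Cd74 (29.3, 16.9, 9.16 and 8.04) and Mrc1 (1.99, 1.02, 0.512 and 0.500) were lower up to the third step and near level after it. Apoe (17.2, 16.7, 13.7 and 18.5) and Arg1 (4.15, 3.52, 3.67 and 4.50) showed no order. All cells come from 1 library, and the steps share the rule's genes.

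**Figure D4:**
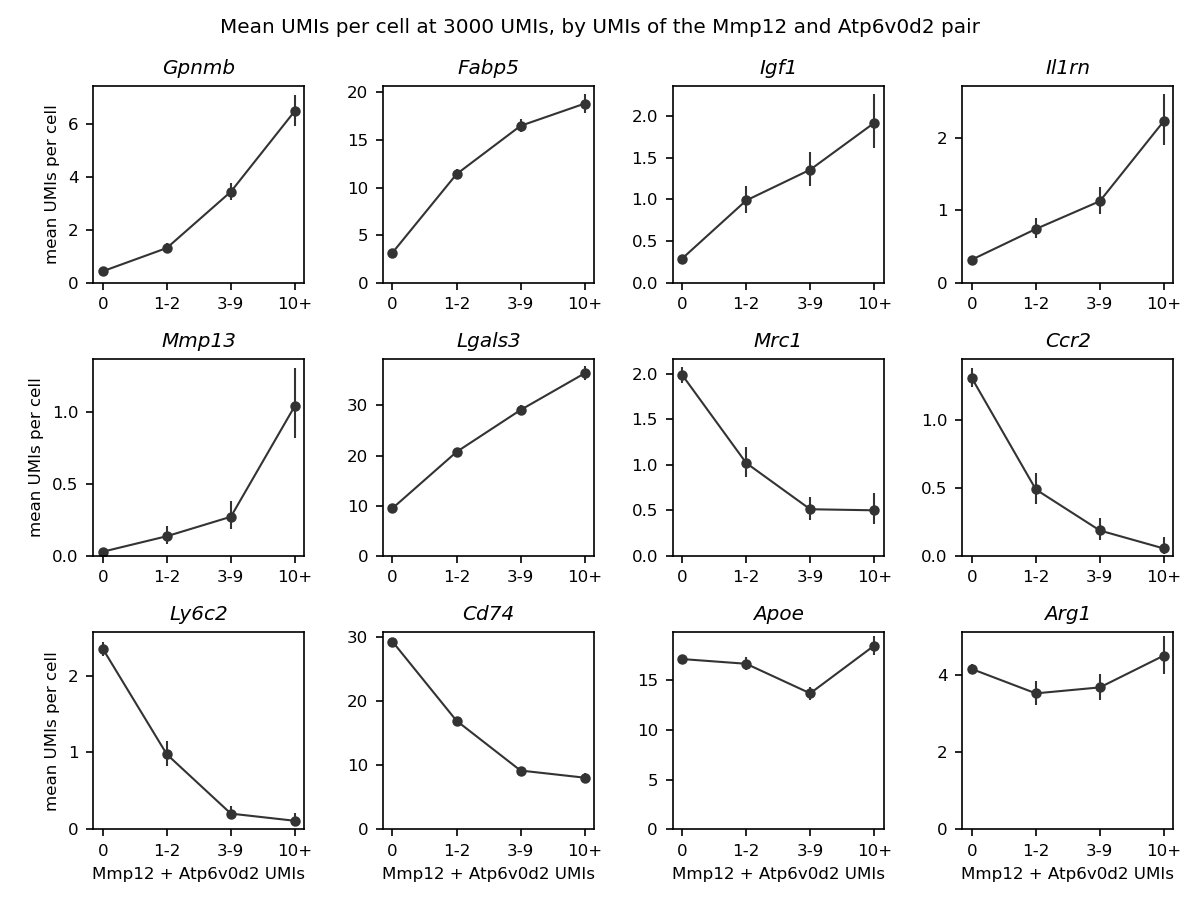
Mean UMIs per cell of 12 genes in macrophages thinned to 3000 UMIs, by the UMIs of Mmp12 and Atp6v0d2 left in the cell (0, 1 to 2, 3 to 9, 10 or more; points, with 95% exact Poisson intervals). Gpnmb goes from 0.432 to 6.50 and Ccr2 from 1.30 to 0.0541, while Apoe stays between 13.7 and 18.5.

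Members with both transcripts differed from those with Mmp12 alone, at like depth (medians of 5112 and 5477 UMIs). The 192 with both had more Igf1 (632 and 212 CPM, log2 ratio 1.58), Fabp4 (1.44), Gpnmb (1.38), Fabp5 (1.37), Gstm1 (1.26), Ccl8 (1.20), Trem2 (0.86) and Fth1 (77044 and 42691 CPM, 0.85). The 154 with Mmp12 alone had more of the immediate early genes Egr1 (-2.39) and Fos (-1.66), of the inflammatory genes Tnf (-2.13), Cxcl3 (-1.77) and Cxcl2 (-1.40), and of H2-Eb1 (-1.36). Mmp12 itself was 0.63 higher in the cells with both. In the 98 barcodes with at least 1 UMI of Atp6v0d2 and none of Mmp12 (4.78% of the gate, 19 of them members), the log2 ratio to the comparison macrophages was 2.37 for Fabp5, 2.35 for Igf1, 2.04 for Gpnmb and 1.18 for Trem2. Mmp13 and Mmp8 had 1 UMI each there (-2.74, interval -8.05 to -0.23, and -2.05, interval -7.38 to 0.48). Within the 365 members, Spearman's rho between per-cell CPM of Mmp12 and of another gene was highest for Il1rn (0.33), Mmp13 (0.33), Gapdh (0.31) and Gpnmb (0.26), and lowest for Cbr2 (-0.24); the cells share a library, and the values are weak. Of 19 thinned members with a Ctsk transcript, 17 had Gpnmb and 6 had Mmp13, against 68.8% and 19.9% of all 276 thinned members.

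Cxcl9/Cxcl10 macrophages, the 139 barcodes with at least 3 UMIs of those interferon-induced chemokines and 0 of the pair, are another set of macrophages in the library. Of 167 C1q-positive barcodes at the Cxcl9/Cxcl10 limit, 11 also had at least 3 UMIs of the pair (6.59%, interval 3.33 to 11.5%, median depth of the 167 8921 UMIs), against 17.8% of the gate below that limit. Cxcl9/Cxcl10 macrophages had a median of 9009 UMIs, 0.833% of them had a Ctsk transcript at 3000 UMIs against 6.88% of members, 1.67% had Mmp13 against 19.9%, and 7.50% had Igf1 against 54.7%. They share the comparison macrophages as reference, so each set's own values are given: Gbp7, a guanylate-binding GTPase, was at 13.4 CPM in members, 37.6 CPM in comparison macrophages and 118 CPM in Cxcl9/Cxcl10 macrophages, and Ifi47 at 24.5, 76.1 and 255 CPM. Fabp4 was at 347, 104 and 10.2 CPM.

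In the Tc9 library 2 of 34 macrophages of the same gate met the rule (5.88%, interval 0.72 to 19.7%). The Tc9 gate had few cells (of 8204 kept barcodes), and with 1 library a group the treatment and the library cannot be told apart. The 2 barcodes held 21 UMIs of Mmp12, 2 of Atp6v0d2, 5 of Igf1, 5 of Ccl8, 3 of Fabp5, 3 of Ctsk and 0 of Trem2 and Gpnmb. Across the libraries 148 barcodes were shared, among them 3 of the members.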

How the data were processed

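RNA and T cell receptor libraries of 2 groups (Tc1 and Tc9, 1 library each, 3 mice pooled) were available. The authors deposited counts, raw UMIs per gene and barcode in filtered matrices, and receptor contig tables. These were made with Cell Ranger 7.0.0 on mm10/GRCm38, per the submitters' processing notes; the annotation release is not given in the sources used here. The Tc1 RNA matrix held 13406 barcodes, of which 11933 were kept, and 32285 genes. No doublet caller was run; barcodes with melanoma UMIs or top depth were left out as an alternative. UMIs were summed over each population and scaled to CPM in Python 3.11.15 with numpy 2.4.6, scipy 1.17.1 and pandas 2.3.3; TMM factors came from edgeR 4.0.16 in R 4.3.3. Ratios have exact conditional 95% intervals and shares Clopper-Pearson ones. The ratio intervals, but not those of shares, were run on simulated sums. Those sums held counting error only, so the run does not bear on differences between cells. A gene was tested at 10 CPM in either population and called at 1.5-fold. Named were the 20 highest and 12 lowest ratios at 50 CPM (leaving out the genes of the rule, receptor and immunoglobulin segments and unnamed gene models), up to 4 genes per list with the largest ratio and the proposed markers; others were named to show both sides of a list, after their values were seen. Gene positions are of the RefSeq table by symbol (151 of 155 named genes and 7801 of 7849 tested genes matched). The members and the 39 gene lists were chosen with earlier results of these data known.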

Additional observations from a re-analysis of the deposited data

How the results depend on the processing

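Each ratio was recomputed under 16 alternatives, 13 planned and 3 added after seeing the data. With 1 library a group no spread between samples was measured, and depth limits genes under about 10 CPM. No paired analysis was possible because each group had 1 library. Relative to the median of all genes, the lipid-associated list stood 1.01 to 1.52 higher under all 16, hypoxia 0.64 to 1.63, glycolysis 0.47 to 1.43, iron 0.57 to 1.19, the pump 0.69 to 1.06 and lysosomal genes 0.39 to 0.80, and class II genes -1.07 to -0.75 and monocyte genes -1.83 to -0.97. The median gene at 0, TMM factors and totals without ferritin shift every ratio alike. Those alternatives could not change these distances, so only the others bear on them. The alternative without Ly6c2, Ccr2 or Plac8 UMIs selects on genes of the monocyte list, so its distance for that list is partly set by the choice.

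Genes 1.5-fold higher and lower numbered 1307 and 1419 with the median gene at 0, 1125 and 1582 with TMM, 1449 and 6077 with no filter, and 200 and 1100 at 50 CPM. At the members' middle depth 570 were higher, and with Atp6v0d2 but no Mmp12 572 were higher and 2194 lower. The share of the gate was 12.5% with 6 UMIs of the pair, 15.0% with 3 Mmp12 UMIs, 4.78% with Atp6v0d2 and no Mmp12, and 13.3% after thinning first. The cause of these shifts was not tested.

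Among list medians and named ratios at least 1.5-fold from 0, signs turned 11 and 21 times. Values nearer 0 turned too, among them the red cell and matrix protease (0.25 with the median gene at 0) lists, the osteoclast list (0.64 at 50 CPM), Arg1 (lowest -0.43), Apoe (highest 0.31), Hbb-bs, Hba-a1 (2.12) and Nkg7 (-0.23). At middle depth Ptgds was 0.0042, Cd209a 1.75, Ccr7 1.53, Col3a1 0.58 and Hbb-bt 0.94, and without melanoma UMIs or top depth Ptgds was 0.39 and Col1a2 0.64. With Atp6v0d2 but no Mmp12, Mmp13 was -2.74, Mmp8 -2.05, Cbr2 0.31, Slc2a1 -0.21 and Cd2 0.59, the resident-type list 0.34 and the cell cycle list 0.015. Without Ly6c2, Ccr2 or Plac8 UMIs, Ccl8 was -0.47, Mmp27 -0.23, Cd209a 1.88, Cxcl3 0.78, Slc40a1 -0.77, Ccr7 0.069, Col1a2 0.71, Col3a1 0.29 and Hbb-bt 1.95. In that setting median depth was 4357 UMIs in members and 2484 UMIs in comparison cells. Lists of other cell types also turned, all at low levels: B cell 0.14 and neutrophil 0.44 with no filter, neutrophil 0.37 without Cd3 UMIs or contigs, dendritic 0.49 after thinning and 1.85 without melanoma UMIs or top depth, and T cell 0.10 there, 0.057 with 6 UMIs of the pair, 0.051 with 3 Mmp12 UMIs and 1.04 with Atp6v0d2 but no Mmp12. The cause was not tested.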
